A study of Mus musculus with 6 samples.

Results

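Hepatic stellate cell and pericyte markers were followed in whole liver through 10 genes, taken by symbol from the 28601 genes of the deposited table: Lrat, Hgf, Reln, Ngfr, Pdgfra, Pdgfrb, Bambi, Cygb, Rgs5 and Hand2. Genes of the smooth muscle contractile apparatus were left out of the set. All 10 were found and all passed the filter on low counts, which left 18648 tested genes. The livers came from male mice: 3 with the genotype PRDX1 Cys52Ser and 3 wild type (WT). PRDX1 is a peroxiredoxin that reduces hydrogen peroxide, and the substitution replaces its peroxidatic cysteine by a serine. Both groups received CDAHFD, a high-fat diet that lacks choline, has defined amino acids in place of protein and leads to steatohepatitis with fibrosis. By the design text and titles it was given from 8 weeks of age for 8 weeks. The treatment field of the labels instead counts upward by sample, from 11 to 13 weeks in Cys52Ser and from 8 to 10 weeks in WT, and if that field were literal, the effects of genotype and of diet length cannot be told apart. The labels do not give the zygosity, the strain or how the substitution was made, or whether mice shared a litter, and p-values measure the spread between these 6 livers only.

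Stellate cells lie between hepatocytes and the sinusoidal endothelium, where they store retinyl esters in lipid droplets and wrap the sinusoid as pericytes do in other capillary beds. In injured liver they lose these stores, proliferate under platelet-derived growth factor (PDGF) and become matrix-producing myofibroblasts. Mesenchymal cells carry the PDGF receptors, and stellate cells are known sources of hepatocyte growth factor, reelin and cytoglobin in the liver.

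In the test of Cys52Ser against WT, 6 of the 10 markers were lower in Cys52Ser and none was higher, against 2.46% of all tested genes called lower, 2.52% called higher and 4.98% called in either direction (edgeR quasi-likelihood test on the deposited counts, Benjamini-Hochberg adjustment over all tested genes, threshold 0.05). The 6 were Ngfr, Rgs5, Cygb, Lrat, Bambi and Pdgfra. Hgf, Pdgfrb, Reln and Hand2 did not pass. The markers and the gene lists below were chosen with earlier results of these data known. The shares of all tested genes beside them are therefore a description and not an independent test. All 10 log2 fold changes were negative, with a median of -1.06 beside a median of -0.003 over all tested genes. In 5 markers it was -1 or below, against 6.92% of all tested genes, and 9 markers had an unadjusted edgeR p under 0.05 on the lower side, against 11.1%. With limma on log2(FPKM + 0.5), all 10 passed as lower, against 14.1% of genes. In 9 of the 10, every Cys52Ser liver lay below every WT liver in CPM, the counts scaled to an effective library size with TMM factors, as was so for 15.2% of all tested genes. In whole liver, fewer expressing cells and less of a transcript per cell cannot be told apart. Nor can stellate cells be told apart from pericytes or other mesenchymal cells that express a marker.

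Which markers passed depended on single libraries and on scaling. The edgeR test gave 0 markers past the threshold when Cys52Ser replicate 1, Cys52Ser replicate 3 or WT replicate 2 was left out, 1 when Cys52Ser replicate 2 was, 4 when WT replicate 1 was and 7 when WT replicate 3 was. In these fits 8 to 10 markers had an unadjusted p under 0.05, as did 3210 to 4360 of 19008 to 19452 tested genes. Total counts were 56473479 to 73900923 in Cys52Ser and 53318196 to 65465225 in WT, albumin took 8.08% to 8.49% of them in Cys52Ser and 3.60% to 5.55% in WT, and the TMM factors were 0.814 to 0.963 in Cys52Ser and 1.05 to 1.21 in WT. Scaled by library totals alone, the median of all tested genes moved to -0.35 on the log2 scale, the median of the markers to -1.43, and all 10 markers passed as lower.

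Promoter windows are shown for the 4 markers that passed and had a window among the promoter sequences used, which Cygb and Bambi did not. Each is the 250 bases before the start of transcription on the gene's strand, from RefSeq (GRCm38.p6), with E-boxes (CANNTG, on either strand, the same motif on both) in capitals. E-boxes are the class of site that basic helix-loop-helix factors such as HAND2 can bind. The Ngfr window is chr11:95587699-95587948 on the minus strand, that of Rgs5 is chr1:169655251-169655500 on the plus strand, that of Pdgfra is chr5:75152001-75152250 on the plus strand and that of Lrat is chr3:82903975-82904224 on the minus strand.
Ngfr: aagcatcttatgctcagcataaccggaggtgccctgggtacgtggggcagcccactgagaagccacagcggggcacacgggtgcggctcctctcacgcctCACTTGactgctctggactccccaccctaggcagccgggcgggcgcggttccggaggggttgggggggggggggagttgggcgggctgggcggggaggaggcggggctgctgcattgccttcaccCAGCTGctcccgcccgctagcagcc
Rgs5: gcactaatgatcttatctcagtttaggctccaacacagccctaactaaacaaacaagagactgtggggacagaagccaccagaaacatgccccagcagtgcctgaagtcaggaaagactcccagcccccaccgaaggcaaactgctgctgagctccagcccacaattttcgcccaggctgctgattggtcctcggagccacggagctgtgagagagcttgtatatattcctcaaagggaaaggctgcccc
Pdgfra: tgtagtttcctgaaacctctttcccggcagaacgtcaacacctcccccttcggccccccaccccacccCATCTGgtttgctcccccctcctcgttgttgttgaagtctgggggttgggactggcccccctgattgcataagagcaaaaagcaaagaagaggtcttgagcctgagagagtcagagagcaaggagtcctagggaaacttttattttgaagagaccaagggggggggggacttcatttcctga
Lrat: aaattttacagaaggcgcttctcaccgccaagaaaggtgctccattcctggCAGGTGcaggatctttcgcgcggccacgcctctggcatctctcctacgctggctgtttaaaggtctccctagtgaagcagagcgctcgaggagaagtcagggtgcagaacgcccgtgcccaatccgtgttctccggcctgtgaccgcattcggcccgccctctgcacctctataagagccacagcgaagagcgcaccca

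Ngfr had 2 E-boxes in this window, Pdgfra and Lrat had 1 each, and the Rgs5 window held none. Of the 7 markers with a window in the table, which are these 4 with Reln, Hgf and Hand2, 6 held an E-box in the first listed window, against 66.2% of 32851 promoter windows of the same length. A GC box (GGGCGG, either strand) was in 4 of the 7, against 32.7% of all windows, and neither a TATA box (TATAAA, 12.4% of all windows) nor an AP-1 motif (TGANTCA, 6.75%) was in any of them. The GGAATG motif of TEAD factors was in 1 of 7, against 12.6% of windows, and the AGATAA motif of GATA factors in 2 of 7, against 9.99%. The windows differ in base composition, with a GC content of 70.4% and 16 CpG dinucleotides for Ngfr, 59.2% and 18 for Lrat, 54.4% and 4 for Pdgfra and 53.6% and 4 for Rgs5, beside medians of 52.4% and 6 over all windows. No motif of this search was in all 4 windows, and matches are descriptions of letters, not of bound sites.

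**Figure D1:**
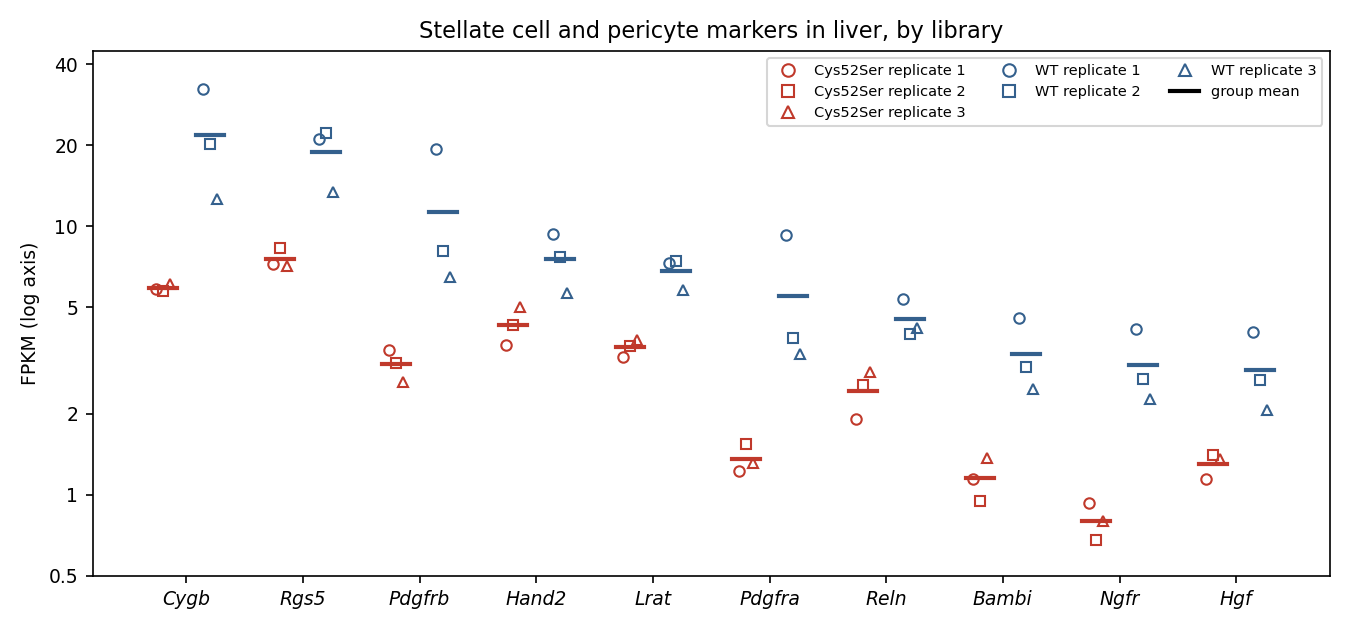
FPKM of the 10 markers on a log axis, with 1 symbol per liver (circle, square and triangle for replicates 1, 2 and 3), Cys52Ser in red left of WT in blue, and bars at group means. On this scale every Cys52Ser liver lies below every WT liver for all 10 genes, and the share of all genes that do so in FPKM was not counted. In CPM, where 15.2% of all tested genes do so, Hand2 overlaps. FPKM is lower in Cys52Ser over all tested genes too, with a median log2 fold change of -0.22 in limma on log2(FPKM + 0.5). The WT livers run from 12.7 to 32.5 FPKM for Cygb.

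Lrat (gene at chr3:82892579-82903973 in GRCm38) encodes lecithin retinol acyltransferase, the enzyme that esterifies retinol for storage and the gene most closely tied to the retinoid-storing state. Lrat stood at 22.5, 22.6 and 27.6 CPM in Cys52Ser livers, against 36.3, 39.4 and 33.9 CPM in WT livers. The groups did not overlap and both were tight. Lrat was 1.51-fold lower in Cys52Ser (log2 fold change -0.59, 95% confidence interval from -0.88 to -0.31, edgeR adjusted p = 0.0425), the smallest change among the 6 markers that passed. With 1 library left out it passed only without WT replicate 3 (adjusted p = 0.0388), and the adjusted p reached 0.136 without Cys52Ser replicate 1.

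Of the retinoid genes around it, 21 of 23 were tested, and 1 rose and none fell, beside 2.52% of all tested genes called higher. Of the 21, 8 had an unadjusted edgeR p under 0.05, as did 4181 of the 18648 tested genes. DESeq2 called 7 of the 21, against 14.7% of all tested genes. In 6 of the 21 every Cys52Ser liver lay above every WT liver in CPM, against 2693 of the 18648. Scaling by library totals alone gave 0 higher and 2 lower and turned the list median of 0.14 to -0.23. The one that rose was Rxra, a nuclear receptor that pairs with retinoic acid receptors and is abundant in hepatocytes, at 399 ± 49.8 CPM in Cys52Ser and 257 ± 16.6 CPM in WT (SD, n = 3 each; 1.55-fold, edgeR adjusted p = 0.05 after rounding and just under the threshold). The plasma carriers Ttr and Rbp4, products of hepatocytes, had the highest mean FPKM of the list, and their log2 fold changes of 0.64 and 0.76 did not pass (adjusted p = 0.11 and 0.0827).

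Hgf (gene at chr5:16553495-16620152) encodes hepatocyte growth factor, a mesenchymal ligand for hepatocytes. It had 10.6, 11.9 and 13.4 CPM in Cys52Ser livers, against 26.9, 19.2 and 16.2 CPM in WT livers. No Cys52Ser liver reached the lowest WT liver, and the WT livers differed by up to 1.66-fold. The 1.73-fold lower level in Cys52Ser did not pass (log2 fold change -0.79, 95% confidence interval from -1.27 to -0.31, edgeR adjusted p = 0.0725).

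The receptor and the activators of this ligand divided by gene. Among 9 genes of the HGF receptor, its activating proteases and their inhibitors, 2 rose and 2 fell, or 1 and 4 when scaled by library totals alone. Of all tested genes, 2.52% were called higher and 2.46% lower. Met, the receptor, was 1.66-fold higher at 83.7 ± 2.50 CPM in Cys52Ser and 50.4 ± 8.20 CPM in WT (SD, n = 3 each; edgeR adjusted p = 0.033). Hgfac, a secreted protease that activates the precursor, was 1.77-fold higher at 194 ± 29.0 CPM in Cys52Ser and 109 ± 16.9 CPM in WT (SD, n = 3 each; edgeR adjusted p = 0.0395). The plasminogen activators Plat and Plau were 4.57-fold and 1.79-fold lower in Cys52Ser (edgeR adjusted p = 0.0243 and 0.0477). Plat stood at 0.722, 0.753 and 0.44 FPKM in Cys52Ser livers, against 5.91, 3.26 and 2.19 FPKM in WT livers.

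Reln (gene at chr5:21884454-22344702) encodes reelin, an extracellular glycoprotein best known from the developing brain and made in liver by stellate cells. Its level was 58.6, 71.6 and 92.8 CPM in Cys52Ser livers, against 118, 94.0 and 108 CPM in WT livers. The highest Cys52Ser liver almost met the lowest WT liver. The change did not pass (1.44-fold lower, log2 fold change -0.52, 95% confidence interval from -0.95 to -0.10, edgeR adjusted p = 0.144). None of the 3 genes of reelin receptors and adaptor passed in edgeR, 1 had an unadjusted p under 0.05 and DESeq2 called 1. The receptor gene Vldlr had 0.414 FPKM in Cys52Ser and 0.397 FPKM in WT (adjusted p = 0.804), and the adaptor Dab1 had 0.0991 FPKM in Cys52Ser and 0.315 FPKM in WT (adjusted p = 0.103).

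Ngfr (gene at chr11:95568818-95587735) encodes the low-affinity neurotrophin receptor, a surface protein by which stellate cells are recognised. It had 4.16, 2.76 and 3.77 CPM in Cys52Ser livers, against 13.2, 9.22 and 8.54 CPM in WT livers. The Cys52Ser mean was 0.417 times the lowest WT liver, the lowest ratio among the 10 genes. Ngfr was 2.90-fold lower in Cys52Ser (log2 fold change -1.54, 95% confidence interval from -2.12 to -0.95, edgeR adjusted p = 0.0243). Leaving out Cys52Ser replicate 2, WT replicate 1 or WT replicate 3 kept it past the threshold (adjusted p = 0.0491, 0.0494 and 0.0351), and leaving out another library gave 0.0662 to 0.0934.

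Of 11 neurotrophins, Trk receptors and partners, 2 fell and none rose, against 2.46% and 2.52% of all tested genes. Ntrk2, the receptor for brain-derived neurotrophic factor, was 2.64-fold lower (edgeR adjusted p = 0.0243), at 10.47 ± 2.51 CPM in Cys52Ser and 27.6 ± 5.81 CPM in WT (SD, n = 3 each). The median log2 fold change of the list was -0.57, or -0.87 with 4 genes lower when scaled by library totals alone.

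Pdgfra (chr5:75152292-75198215) and Pdgfrb (chr18:61045150-61085061) encode the alpha and beta PDGF receptors, tyrosine kinases of mesenchymal cells. Pdgfra had 15.9, 18.3 and 18.1 CPM in Cys52Ser livers, against 86.4, 38.3 and 36.4 CPM in WT livers. Pdgfrb had 24.4, 20.05 and 19.7 CPM in Cys52Ser livers, against 98.5, 44.1 and 38.5 CPM in WT livers. For both, the Cys52Ser livers lay close together, and WT replicate 1 was higher than the other WT livers added together. Pdgfra was 3.09-fold lower in Cys52Ser (log2 fold change -1.63, 95% confidence interval from -2.44 to -0.81, edgeR adjusted p = 0.0494). Pdgfrb was 2.82-fold lower and did not pass (log2 fold change -1.50, 95% confidence interval from -2.37 to -0.63, edgeR adjusted p = 0.0689). Without WT replicate 1 both passed, with smaller log2 fold changes of -1.15 for Pdgfra (edgeR adjusted p = 0.0298) and -0.998 for Pdgfrb (edgeR adjusted p = 0.0393). Pdgfra also passed without WT replicate 3 (adjusted p = 0.0451) and not without any other single library (up to 0.154, without Cys52Ser replicate 1).

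All 4 PDGF ligands had negative log2 fold changes and 3 of them fell, against 2.46% of all tested genes, with a list median of -1.08. Scaled by library totals alone, 3 fell and the median was -1.46. Pdgfd, a ligand of the beta receptor, was 3.99-fold lower, at 0.671, 1.005 and 0.826 FPKM in Cys52Ser livers, against 7.35, 2.96 and 2.71 FPKM in WT livers (edgeR adjusted p = 0.035). Pdgfb, which binds both receptors, was 2.30-fold lower (edgeR adjusted p = 0.0487), and Pdgfa was 1.75-fold lower (edgeR adjusted p = 0.0382). Pdgfc had 1.14, 1.56 and 1.63 FPKM in Cys52Ser livers, against 6.10, 1.91 and 2.98 FPKM in WT livers, and did not pass (edgeR adjusted p = 0.198). As with the receptors, WT replicate 1 was the highest liver for each of the 4 ligands in FPKM.

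Bambi (gene at chr18:3507923-3516404) encodes a membrane pseudoreceptor that lacks a kinase domain and dampens TGF-beta signalling. It had 7.496, 5.67 and 9.51 CPM in Cys52Ser livers, against 21.5, 15.0 and 13.7 CPM in WT livers. The groups did not overlap, and Bambi was 2.22-fold lower in Cys52Ser (log2 fold change -1.15, 95% confidence interval from -1.73 to -0.57, edgeR adjusted p = 0.0468). With 1 library left out, Bambi passed only without WT replicate 3 (adjusted p = 0.0483 there, and 0.0812 to 0.141 otherwise). Among 22 TGF-beta and BMP ligands, receptors, inhibitory SMADs and ID targets, 2 fell and none rose, against 2.46% and 2.52% of all tested genes. The median log2 fold change was -0.03. Scaled by library totals alone, 7 fell and the median was -0.39. The 2 with TMM scaling were Tgfb2, 4.16-fold lower, and Tgfbr1, a signalling receptor, 1.62-fold lower (edgeR adjusted p = 0.0338 and 0.0368). The BMP-regulated Id1, Id2 and Id3, named after their values were seen, had log2 fold changes of 0.43, 0.20 and 0.08, none past the threshold (adjusted p = 0.481, 0.793 and 0.925).

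**Figure D2:**
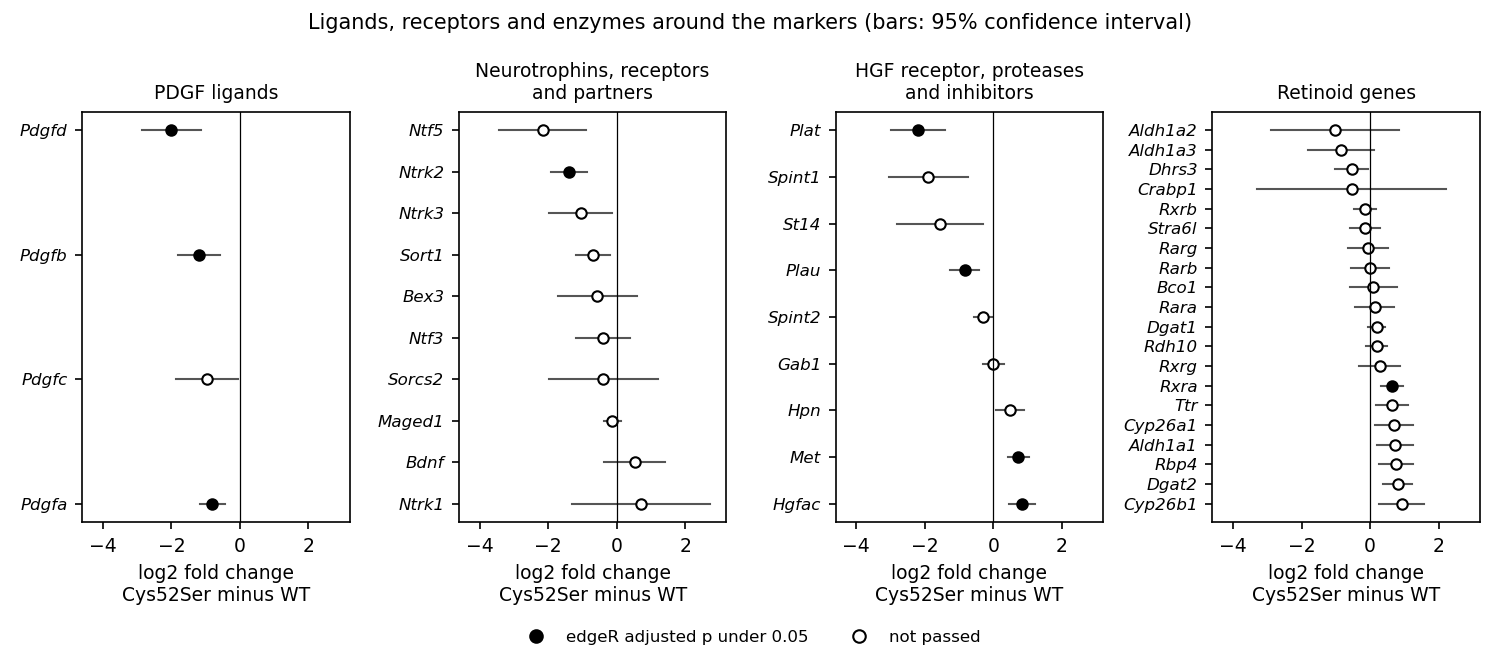
Log2 fold change, Cys52Ser minus WT, of reported genes around the markers, with 95% confidence intervals and filled points where the edgeR adjusted p was under 0.05. Pdgfd, Pdgfb and Pdgfa, then Ntrk2, then Plat and Plau pass on the lower side, whereas Met, Hgfac and Rxra pass on the higher side.

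Cygb (gene at chr11:116645595-116654313) encodes cytoglobin, a globin of stellate cells that binds oxygen and scavenges reactive oxygen and nitrogen species. It had 17.6, 15.7 and 19.4 CPM in Cys52Ser livers, against 70.3, 46.9 and 32.2 CPM in WT livers. Even the lowest WT liver was well above all Cys52Ser livers, whose mean was 0.546 times that liver. Cygb was 2.84-fold lower in Cys52Ser (log2 fold change -1.50, 95% confidence interval from -2.15 to -0.86, edgeR adjusted p = 0.0352). It passed without WT replicate 1 or WT replicate 3 (adjusted p = 0.0396 and 0.0233), and the adjusted p was 0.0734 to 0.117 without any of the others.

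Rgs5 (gene at chr1:169655501-169695813) encodes a regulator of G protein signalling that marks pericytes. It had 42.6, 44.3 and 44.3 CPM in Cys52Ser livers, against 88.9, 101 and 66.7 CPM in WT livers. The coefficient of variation was 2.31% in Cys52Ser and 20.2% in WT. Rgs5 was 1.95-fold lower in Cys52Ser (log2 fold change -0.97, 95% confidence interval from -1.33 to -0.61, edgeR adjusted p = 0.0243). Leaving out WT replicate 3 kept Rgs5 past the threshold (adjusted p = 0.0232), and leaving out any other library gave 0.0523 to 0.0934. Of 7 tested relatives from the same RGS subfamily, 2 fell and none rose, against 2.46% and 2.52% of all tested genes. Rgs2 was 1.901-fold lower and Rgs1, which leukocytes express, 1.85-fold lower (edgeR adjusted p = 0.0203 and 0.0314). Among 6 tested further pericyte genes 1 fell, against 2.46% of all tested genes, or 2 when scaled by library totals alone. With TMM scaling it was Kcnj8, a potassium channel subunit of pericytes, 1.86-fold lower (edgeR adjusted p = 0.0314). Its partner Abcc9 and the adhesion molecule Mcam had log2 fold changes of -0.42 and -0.04 (adjusted p = 0.288 and 0.943).

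Hand2 (gene at chr8:57320983-57324633) encodes a basic helix-loop-helix transcription factor of mesenchymal cells, including stellate cells. It had 10.95, 11.9 and 16.1 CPM in Cys52Ser livers, against 20.5, 18.0 and 14.4 CPM in WT livers. Cys52Ser replicate 3 lay above WT replicate 3, so that Hand2 was the marker with overlapping groups on the CPM scale. The change did not pass (1.36-fold lower, log2 fold change -0.44, 95% confidence interval from -0.90 to 0.02, edgeR adjusted p = 0.244). The antisense gene Hand2os1 covers 89.0% of Hand2 on the opposite strand, and since no source used here says whether reads were assigned by strand, the Hand2 value is uncertain. Hand2os1 itself stood at 0.453 ± 0.0538 FPKM in Cys52Ser and 0.817 ± 0.292 FPKM in WT (SD, n = 3 each; adjusted p = 0.297). Of 15 tested mesenchymal factors and HAND2 partners, Tcf21, a factor of quiescent stellate cells, was 2.49-fold lower (edgeR adjusted p = 0.0168) and no other passed. Of all tested genes, 2.46% were called lower. Scaled by library totals alone, 2 of the 15 fell. Tcf3 and Mef2d, the highest of the rest by FPKM averaged over both groups, had log2 fold changes of -0.08 and -0.20 (adjusted p = 0.836 and 0.291).

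Other annotated genes lie across some markers, but with few counts. Rbm46os spans Lrat on the opposite strand with 3 counts in WT replicate 1 and 0 in the other libraries. Prcd covers 8.95% of Cygb on the opposite strand, at 7 to 15 counts in Cys52Ser and 14 to 44 counts in WT, against 853 to 1148 counts of Cygb in Cys52Ser and 1858 to 5562 in WT.

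**Figure D3:**
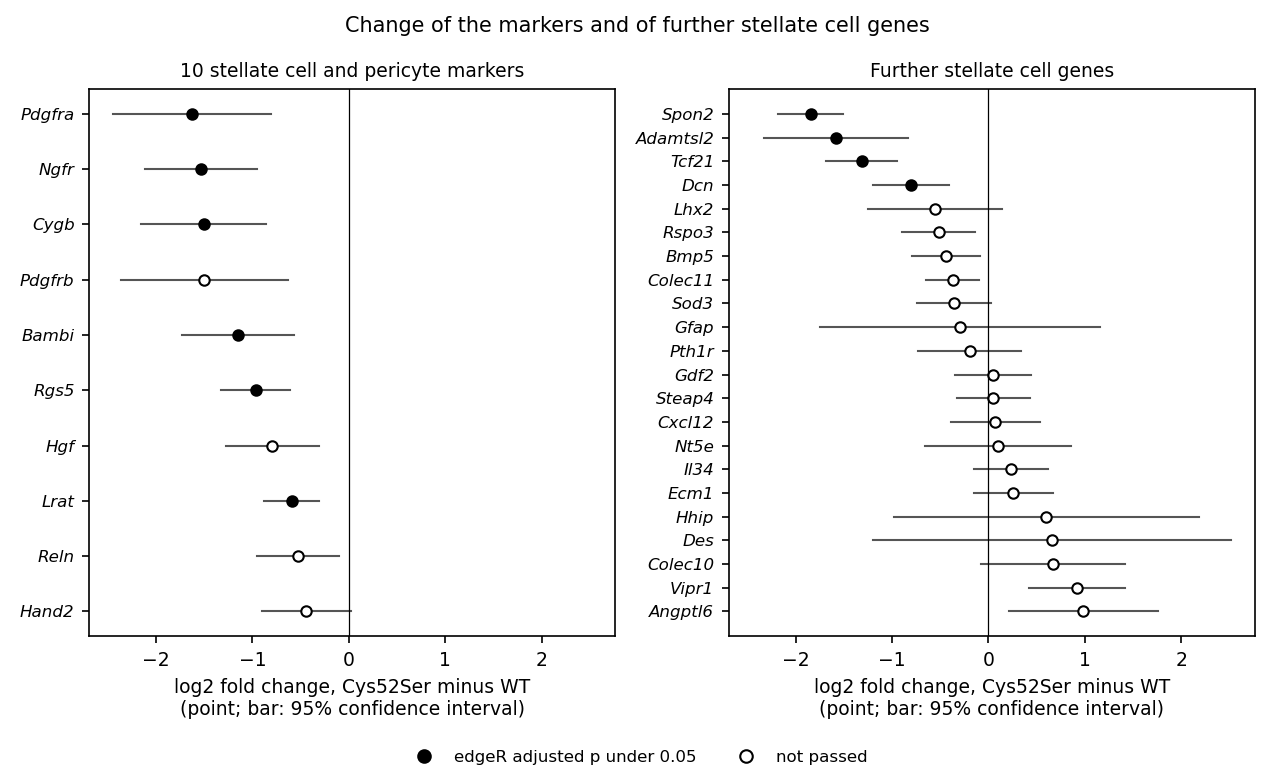
Log2 fold change, Cys52Ser minus WT, of the 10 markers (left) and of further stellate cell genes (right), with 95% confidence intervals and filled points where the edgeR adjusted p was under 0.05. All 10 points on the left lie below 0, while the right panel runs from Spon2 at -1.84 to Angptl6 at 0.99.

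Further genes of stellate cells divided in direction, and whether they differ from the markers was not tested. Of 23, all tested, 4 fell (1 to 4 with single libraries left out) and none rose, against 2.46% and 2.52% of all tested genes. In 7 of the 23 every Cys52Ser liver lay below every WT liver in CPM, against 15.2% of all tested genes. In 3 of the 23 every Cys52Ser liver lay above every WT liver, against 2693 of the 18648 tested genes. Of the log2 fold changes, 12 were positive and 11 negative, with a median of 0.03. Scaled by library totals alone, 8 fell and the median was -0.33. The 4 that fell with TMM scaling were Spon2, 3.59-fold lower, Adamtsl2, 2.99-fold lower, Tcf21, and Dcn, 1.74-fold lower (edgeR adjusted p = 0.0107, 0.0433, 0.0168 and 0.0442). Dcn, the proteoglycan decorin, stood at 38.6, 46.7 and 45.1 FPKM in Cys52Ser livers, against 124, 91.1 and 77.6 FPKM in WT livers. Steap4, which other liver cells also express, had 434 ± 68.2 CPM in Cys52Ser and 418 ± 36.5 CPM in WT, and the chemokine gene Cxcl12 had 339 ± 38.4 CPM in Cys52Ser and 323 ± 79.4 CPM in WT (SD, n = 3 each; edgeR adjusted p = 0.895 and 0.875; both named after their values were seen). Vipr1, a receptor for vasoactive intestinal peptide also named after its values were seen, was 1.89-fold higher in Cys52Ser and did not pass (adjusted p = 0.0555).

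On a scale per transcript length, Rgs5 was the most abundant marker in Cys52Ser at 7.55 ± 0.629 FPKM, followed by Cygb at 5.88 ± 0.192 FPKM and Hand2 at 4.31 ± 0.705 FPKM (SD, n = 3). Lrat at 3.54, Pdgfrb at 3.06 and Reln at 2.44 FPKM came next, then Pdgfra at 1.36, Hgf at 1.304, Bambi at 1.15 and Ngfr at 0.802 FPKM. Within Cys52Ser the ranges of Rgs5 and Cygb, of Cygb and Hand2, of Reln and Pdgfra, and of Bambi and Ngfr did not overlap, and the other neighbours in the order did. In WT the order was Cygb at 21.8 ± 9.99, Rgs5 at 18.9 ± 4.79 and Pdgfrb at 11.3 ± 7.02 FPKM (SD, n = 3), then Hand2 at 7.55, Lrat at 6.84, Pdgfra at 5.48, Reln at 4.50, Bambi at 3.34, Ngfr at 3.03 and Hgf at 2.92 FPKM. The ranges of every pair of neighbours overlapped in WT.

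The share of each marker in the summed FPKM of the 10 does not depend on how a library is scaled. The sum was 29.7 to 32.3 FPKM in Cys52Ser livers and 58.3 to 117 FPKM in WT livers. Cygb made up 19.6%, 17.8% and 18.8% of it in Cys52Ser livers, against 27.8%, 24.7% and 21.7% in WT livers. Hand2 made up 12.1%, 13.4% and 15.5% in Cys52Ser livers, against 8.01%, 9.38% and 9.64% in WT livers. The shares in a liver are parts of the same sum, so lower shares of some markers go with higher shares of others. All 10 markers had negative log2 fold changes, those with a higher share in Cys52Ser included. Without overlap between the groups, the shares of Cygb and Ngfr were lower and those of Hand2, Lrat and Hgf higher in Cys52Ser. For these 5 the exact two-sided permutation p was 0.1, the smallest that 3 against 3 livers allow, and 0.2 after Benjamini-Hochberg adjustment over the 10 shares, so none passed. The shares of Reln, Pdgfra, Pdgfrb, Rgs5 and Bambi overlapped.

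**Figure D4:**
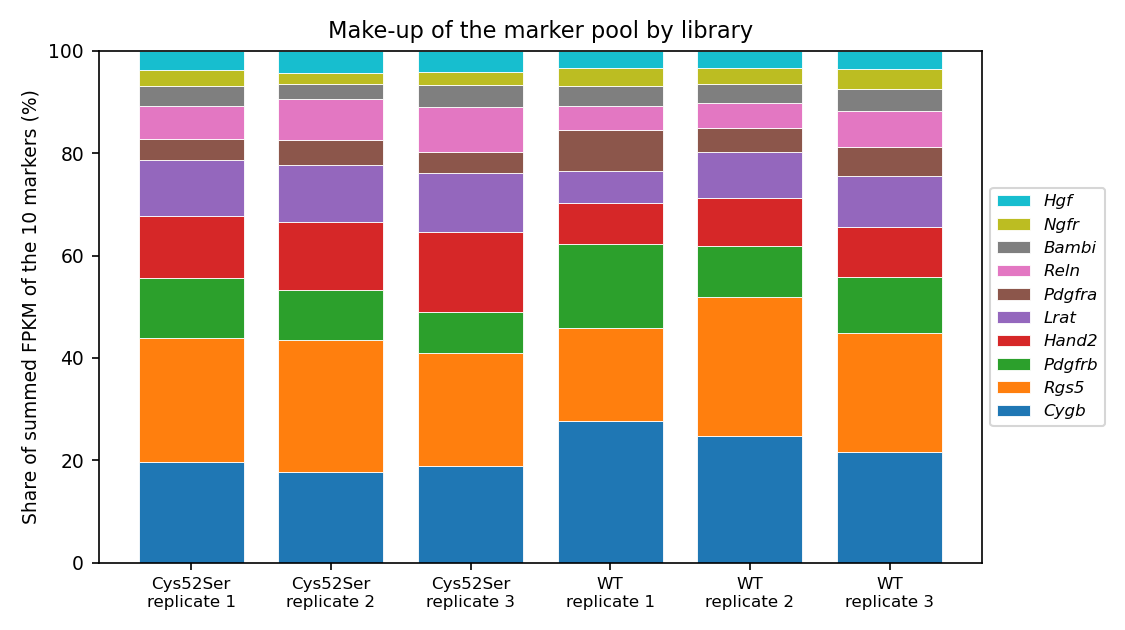
Share in percent of each marker in the summed FPKM of the 10 markers, with 1 stacked bar per liver and Cys52Ser livers left of WT livers. The Cygb segment is 17.8% to 19.6% in Cys52Ser and 21.7% to 27.8% in WT, and the Hand2 segment is 12.1% to 15.5% in Cys52Ser and 8.01% to 9.64% in WT.

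Within each group, most markers shared their highest and their lowest liver. WT replicate 1 was the highest WT liver for 8 of the 10 markers in CPM and WT replicate 3 the lowest for 9, against 37.3% and 35.4% of all tested genes. Cys52Ser replicate 3 was the highest Cys52Ser liver for 7 and Cys52Ser replicate 1 the lowest for 6, against 37.5% and 28.2%. Over the 6 libraries, Pearson correlations of log2 CPM between the 45 pairs of markers were 0.71 to 0.98 with a median of 0.89, which includes the difference between groups. Taking each group's mean out left correlations from -0.10 to 0.92 with a median of 0.60, the highest being that of Pdgfra with Pdgfrb. These pairs share libraries, no p is attached, and pairs of other genes were not set beside them. With gene-model symbols left out, the genes outside the set that most resembled the mean standardised pattern of the 10 over the 6 libraries were Evc (r = 0.999), Gucy1a1, a subunit of the nitric oxide receptor guanylate cyclase (0.996), Atp6v1a (0.996), Sftpd (0.995) and Igsf10 (0.994). They were picked from all tested genes for this r, and the pattern includes the group difference. High r and lower levels in Cys52Ser therefore follow from the choice. Of these, Gucy1a1 was 3.07-fold and Sftpd 5.77-fold lower in Cys52Ser (edgeR adjusted p = 0.0271 and 0.0277), whereas Atp6v1a, a proton pump subunit, was 1.18-fold lower and did not pass (adjusted p = 0.186).

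Markers of other cells moved with genotype beside these results, and their part was not tested. The calls below stand beside 2.46% of all tested genes called lower and 2.52% called higher. The sums are in FPKM, to which no TMM factor was applied. Hepatocyte markers had positive log2 fold changes in 10 of 10 and 2 rose (Cps1 and Hnf4a), with summed levels of 44552 to 47752 FPKM in Cys52Ser and 23679 to 32728 FPKM in WT. Of 10 portal fibroblast markers 3 fell (Gpx3, Dpt and Entpd2), with sums of 20.9 to 39.5 FPKM in Cys52Ser and 66.5 to 155 FPKM in WT, while Thy1, named after its values were seen, stood at -0.03 on the log2 scale (adjusted p = 0.98). Of 11 myofibroblast markers 3 fell (Col3a1, Loxl2 and Lox), with sums of 94.3 to 288 FPKM in Cys52Ser and 419 to 987 FPKM in WT. Cholangiocyte markers fell in 2 of 8 (Pkhd1 and Cldn7), with sums of 58.2 to 209 FPKM in Cys52Ser and 330 to 815 FPKM in WT. The myofibroblast and cholangiocyte sums are not separate, since Spp1 is in both lists and makes up most of each sum in every liver. Spp1, named after its values were seen, had 66.3, 172 and 51.3 FPKM in Cys52Ser livers, against 758, 377 and 311 FPKM in WT livers. It did not pass (edgeR adjusted p = 0.0691). In contrast, sinusoidal endothelial markers rose in 4 of 9 (Kdr, Dnase1l3, Cdh5 and Gpr182), with sums of 89.9 to 95.9 FPKM in Cys52Ser and 83.0 to 90.8 FPKM in WT. Scaled by library totals alone, 0 of these 9 passed and their median log2 fold change was 0.22 in place of 0.57. With that scaling 4 hepatocyte markers rose, and 4 portal fibroblast, 6 myofibroblast and 5 cholangiocyte markers fell. Macrophage markers then gave 2 higher and 3 lower. Macrophage markers rose in 2 of 8 (Cd163 and Clec4f) and fell in 2 (Gpnmb and Trem2), with sums of 197 to 231 FPKM in Cys52Ser and 250 to 358 FPKM in WT. No member of these lists was at 0 in every library. Together with the genes around the markers these lists gave 34 edgeR calls, 11 higher and 23 lower, where 4.98% of all tested genes were called in either direction. The different genes tested in these lists were not counted, so no share of them is given. Tcf21 is among the 34 and also among the further stellate cell genes that fell. The 34 became 24 on leaving out Cys52Ser replicate 2, 17 for WT replicate 1, 29 for WT replicate 3 and 0 for each of the other libraries. In the fits with 0 calls, 61 to 66 list genes had an unadjusted edgeR p under 0.05, as did 3210 to 3492 of 19267 to 19349 tested genes.

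Smooth muscle, mesothelial, Schwann cell and lymphatic markers gave no edgeR call, and their sums overlapped between groups. At an unadjusted p under 0.05 there were 0 smooth muscle, 1 mesothelial, 0 Schwann cell and 1 lymphatic genes, and DESeq2 called 0, 1, 0 and 1. The smooth muscle sum was 117 FPKM in Cys52Ser replicate 2, against 20.6 and 14.2 FPKM in Cys52Ser replicates 1 and 3 and 33.5 to 47.8 FPKM in WT. The markers did not share this pattern, since their summed level in Cys52Ser replicate 2 was 32.1 FPKM. Mesothelial sums were 0.812 to 7.28 FPKM in Cys52Ser and 6.14 to 8.07 FPKM in WT, Schwann cell sums 0.599 to 6.83 FPKM in Cys52Ser and 3.04 to 5.90 FPKM in WT, and lymphatic sums 30.4 to 32.3 FPKM in Cys52Ser and 27.2 to 40.1 FPKM in WT.

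**Figure D5:**
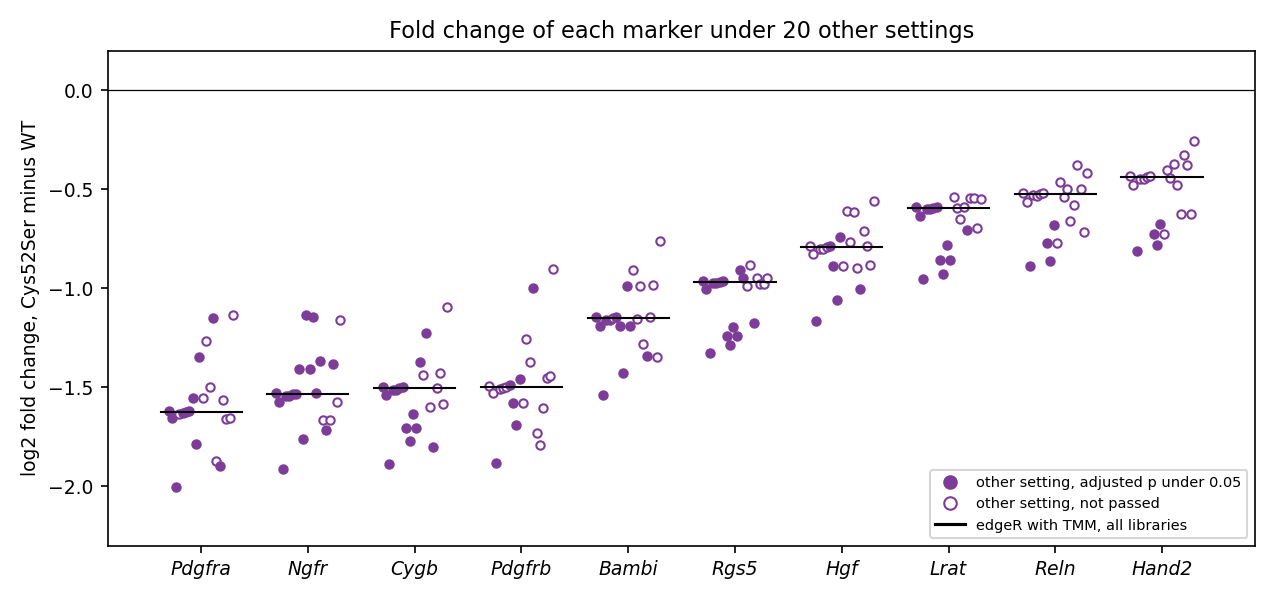
Log2 fold change, Cys52Ser minus WT, of each marker under 20 other settings (points, filled where the adjusted p was under 0.05), with a black line at the value from all 6 libraries. All points lie below 0, the values of Ngfr pass in 16 of 20 settings, and those of Reln and Hand2 in 4 of 20 each.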

How the data were processed

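Liver RNA of 3 Cys52Ser and 3 WT mice was sequenced as poly(A)-selected, strand-marked paired-end libraries, per the labels' protocols. Per the file headers, the table that the authors deposited gives each gene's estimated counts and FPKM in the 6 livers. Tools listed in the submitters' processing notes, with no order, include StringTie 1.3.4d, UMI-tools, HISAT2 2.0.4 and cutadapt 1.9. Those notes give mm9 as the build. However, the coordinates of all 10 markers are identical in GENCODE M21 (GRCm38), so positions are given as GRCm38. The deposited counts are whole numbers and needed no rounding. They track coverage-based estimates, so their error is not purely that of counting. FPKM was scaled by the authors to depth and transcript length.

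Counts were tested with edgeR 4.0.16 in R 4.3.3 (minimum count of 10 in filterByExpr, TMM, robust quasi-likelihood; the model held genotype alone). DESeq2 1.42.0, limma 3.58.1 on log2(FPKM + 0.5), other scalings and filters, a replicate block and leaving out libraries were alternatives. No pair of replicates agreed within sampling noise (chi-square per degree of freedom 86.9 or more). Markers and gene lists were chosen with earlier results of these data known. Named genes were the markers, genes past the threshold in each list (at most 4 per direction, or the 2 others with the highest mean FPKM where fewer than 2 passed), the 5 most alike genes and genes overlapping a marker. Some genes that the rule takes are left out by name and from figures but stay in the counts. Promoter sequences came from RefSeq.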

Additional observations from a re-analysis of the deposited data

How the results depend on the processing

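The direction of all 10 markers was the same under all 20 alternatives. The count of markers past the threshold was 6 and stayed between 5 and 8 with RLE factors, upper quartile factors, both other count filters, non-robust fits, DESeq2 and unfiltered FPKM. It was 10 with library totals alone and with limma on log2(FPKM + 0.5), log2(FPKM + 0.1) and log2(FPKM + 1), and 3 in limma on TMM-rescaled FPKM. Over all genes 928 passed, against 3017 with library totals alone, 2737 in DESeq2, and 2967, 2947 and 2842 in limma with pseudocounts of 0.5, 0.1 and 1; calls on the higher side made up 50.5% of all calls, but 9.71% with library totals alone and 11.5% in limma on log2(FPKM + 0.5). Of the 23 further stellate cell genes 4 passed, against 8 with library totals alone, 7 in DESeq2, 8 in limma with each of the pseudocounts and 2 on TMM-rescaled FPKM. Of the remaining lists 34 genes passed, against 52 with library totals alone and 62 in DESeq2. The cause was not tested.

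Leaving out 1 library gave 28 to 790 changed genes, 0 to 7 markers, 1 to 4 of the further stellate cell genes and 0 to 29 genes of the remaining lists. Leaving out Cys52Ser replicate 2 and WT replicate 1 together, chosen after seeing the data, gave 0 edgeR calls in each of these sets, with 3794 genes, 8 markers, 8 further stellate cell genes and 84 genes of the remaining lists at an unadjusted p under 0.05. Such fits leave fewer mice. With the replicate number as a block, 2 markers (Ngfr and Rgs5) and 729 genes passed. The labels do not say what a shared replicate number means. Deviations of same-numbered livers from their group means correlated at -0.039, 0.137 and 0.018, and 2 of the 3 Cys52Ser livers correlated best with another number. With 3 livers per group, these values cannot decide whether same-numbered livers are related. The share of Rgs5 in the marker pool, 1.28 points higher in Cys52Ser, was -0.289 points on the CPM scale and -1.10 to 3.52 points with 1 library left out, negative without WT replicate 1. That of Bambi, -0.26 points, was -0.541 to 0.104 points, positive without Cys52Ser replicate 2.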
